A study of Mus musculus with 6 samples.

Results

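A set of 10 genes of the integrated stress response was examined in liver RNA-seq of mice with a hepatocyte-specific deletion of ferroportin, the cellular iron exporter. The genes were Atf4, Ddit3 (which encodes CHOP), Trib3, Chac1, Asns, Ppp1r15a, Sesn2, Atf3, Eif2ak3 and Impact, taken by symbol from the deposited table, and all 10 were found among its 45777 genes. The 3 LT mice were littermate controls of the genotype Fpn flox/flox, and the 3 Fpn-LKO mice were Alb-Cre; Fpn flox/flox, so that both groups carried the floxed allele and only the second carried the Cre transgene. The mice were C57BL/6 males fed a high-fat diet (HFD), which per the methods gave 60% of its energy as fat and was started at 8 weeks of age. The length of feeding before these livers were taken is not given in the sources used here. The albumin promoter drives Cre in hepatocytes, and the other cells of the liver, which are also in a whole-liver library, keep the gene. The floxed allele came from a line of another strain, and the crossed line was bred back to C57BL/6J over 10 generations. Each library came from 1 mouse, and all 6 carry the same batch label.

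The integrated stress response slows protein synthesis when a cell meets unfolded protein in the endoplasmic reticulum (ER), amino acid shortage, heme shortage or viral RNA. Each of these signals activates its own kinase, and the kinases all phosphorylate the initiation factor eIF2 on its alpha subunit. General translation then falls while the ATF4 message, which is held back by upstream reading frames under normal conditions, is translated more. ATF4 switches on genes of amino acid supply and, with CHOP, genes of stress adaptation and cell death. Much of ATF4 control acts on translation, which a transcript count does not measure, so the transcripts of its target genes are the usual RNA readout of the pathway. In liver the response is known for its links to diet, amino acid supply and steatosis.

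ATF4 binds as a dimer with C/EBP proteins to the C/EBP-ATF response element, whose core was searched here as TGATGNAA on both strands, in windows from 250 bases before to 50 bases after each RefSeq start site (GRCm38.p6). Such windows of 9 of the 10 genes were searched. Impact was left out, as windows on its chromosome, 18, were not used for the set. A core match was found in 4 of these 9, Asns, Chac1, Atf3 and Trib3, where 3.97% of all 32851 windows of this length hold one. The cyclic AMP response element TGACGTCA, which ATF family proteins also bind, was found in 1 of the 9, Ppp1r15a, against 1.79% of all windows. The ER stress element, CCAAT and CCACG with 9 bases between them, was found in none of the 9 and in 0.119% of all windows, and none of the 9 windows held matches of more than 1 of these motifs. A match is a description of the letters in the window and not a measured binding site. The stretches with a match are shown because the 4 genes that share the ATF4 core had different library patterns (described further on). Capitals mark the match, and each sequence reads 5′ to 3′ along the strand of its gene.
Asns (chr6:7693210-7693459, minus strand, 250 bases before the start): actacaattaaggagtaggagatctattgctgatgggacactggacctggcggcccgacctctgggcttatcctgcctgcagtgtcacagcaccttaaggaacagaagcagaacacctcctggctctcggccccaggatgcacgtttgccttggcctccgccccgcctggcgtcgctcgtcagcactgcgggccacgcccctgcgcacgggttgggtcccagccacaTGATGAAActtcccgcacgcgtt
Chac1 (chr2:119350992-119351241, plus strand, 250 bases before the start): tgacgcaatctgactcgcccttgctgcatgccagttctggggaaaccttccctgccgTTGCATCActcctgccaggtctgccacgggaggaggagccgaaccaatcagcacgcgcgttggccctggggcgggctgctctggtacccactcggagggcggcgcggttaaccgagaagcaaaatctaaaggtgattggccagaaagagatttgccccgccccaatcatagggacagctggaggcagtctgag
Atf3 (chr1:191183334-191183583, minus strand, 250 bases before the start): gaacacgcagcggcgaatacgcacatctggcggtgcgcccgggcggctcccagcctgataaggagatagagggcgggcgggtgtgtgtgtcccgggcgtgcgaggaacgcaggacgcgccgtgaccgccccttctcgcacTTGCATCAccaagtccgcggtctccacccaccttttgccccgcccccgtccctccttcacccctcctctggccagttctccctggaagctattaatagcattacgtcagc
Trib3 (chr2:152344028-152344057, minus strand, 30 bases around the match): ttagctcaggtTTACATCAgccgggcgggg
Ppp1r15a (chr7:45526269-45526518, minus strand, 250 bases before the start, cyclic AMP response element): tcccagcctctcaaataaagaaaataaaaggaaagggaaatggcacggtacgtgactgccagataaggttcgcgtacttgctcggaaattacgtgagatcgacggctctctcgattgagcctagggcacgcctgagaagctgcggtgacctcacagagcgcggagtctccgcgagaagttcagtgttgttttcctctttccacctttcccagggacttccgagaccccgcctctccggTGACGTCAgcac
The core lay from position -23 to -16 before the start of Asns, from -193 to -186 in Chac1 and from -110 to -103 in Atf3. In Trib3 it lay just after the start, from base 15 to base 22 of the transcribed strand. The element of Ppp1r15a lay from -12 to -5.

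Total counts on genes were 43086184 to 47661066 in LT and 46280614 to 47778683 in Fpn-LKO. Levels are given as CPM, a gene's count relative to the TMM-scaled size of its library, and each fold change sets the Fpn-LKO libraries over the LT ones. The deleted gene was examined first. Slc40a1, the ferroportin gene, stood at 154, 180 and 126 CPM in the LT mice, against 143, 143 and 176 CPM where the label was Fpn-LKO (log2 fold change 0.0073, standard error (SE) 0.16). The transcript count did not separate the genotypes, and every direction given here therefore rests on the labels. The paper reports that the deletion was checked in primary hepatocytes and other tissues and by immunostaining of ferroportin. Whether the mice sequenced here were among those checked is not given in the sources used here. Hepatocyte markers were abundant in all 6 libraries, with 38068 to 48160 CPM of Alb. Of the 6 pancreas markers, 5 had no read in any library, and the sixth, Cela2a, was at 0.577 to 1.5 CPM in LT and at 0 to 0.343 CPM in Fpn-LKO, without overlap (edgeR quasi-likelihood test, adjusted p = 0.982). Of all genes tested, 5.34% were likewise lower in Fpn-LKO without overlap. All 5 blood cell markers had a positive log2 fold change, with a median of 0.58 and sums of 351 to 941 CPM in LT and 474 to 1243 CPM in Fpn-LKO, and none passed the adjusted threshold. The summed CPM of the 8 Kupffer cell and macrophage markers was 230 to 294 in LT and 194 to 434 in Fpn-LKO. The 8 stellate and endothelial cell markers summed to 496 to 532 CPM in LT and to 449 to 473 CPM in Fpn-LKO, but 4 of them had a positive and 4 a negative log2 fold change, with a median of -0.034, and the groups overlapped for each of the 8. In whole liver, fewer cells of a type and less RNA per cell cannot be told apart.

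None of the 10 genes passed the test between the genotypes after adjustment over the 17274 genes tested. In edgeR's quasi-likelihood test, the Benjamini-Hochberg adjusted p-values of the 10 lay between 0.982 and 0.995. That test called 4 genes, or 0.0232% of those tested, under 0.05. Of the 10, 1 had an unadjusted p-value under 0.05 by the same edgeR test, Atf3, where 4.8% of all genes did. None of the 10 had groups that did not overlap, where 10.6% of all genes tested did (5.25% with the Fpn-LKO libraries higher and 5.34% with them lower). The log2 fold change was positive for 5 of the genes and negative for the other 5, with a median of -0.0053, beside a median of -0.0040 over all genes tested. DESeq2's Wald test called 72 genes and exactTest 63 in all, or 0.417% and 0.365% of those tested, and neither called any of the 10. For any 1 gene, an exact permutation test of 3 mice against 3 cannot give a p below 0.1.

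**Figure D1:**
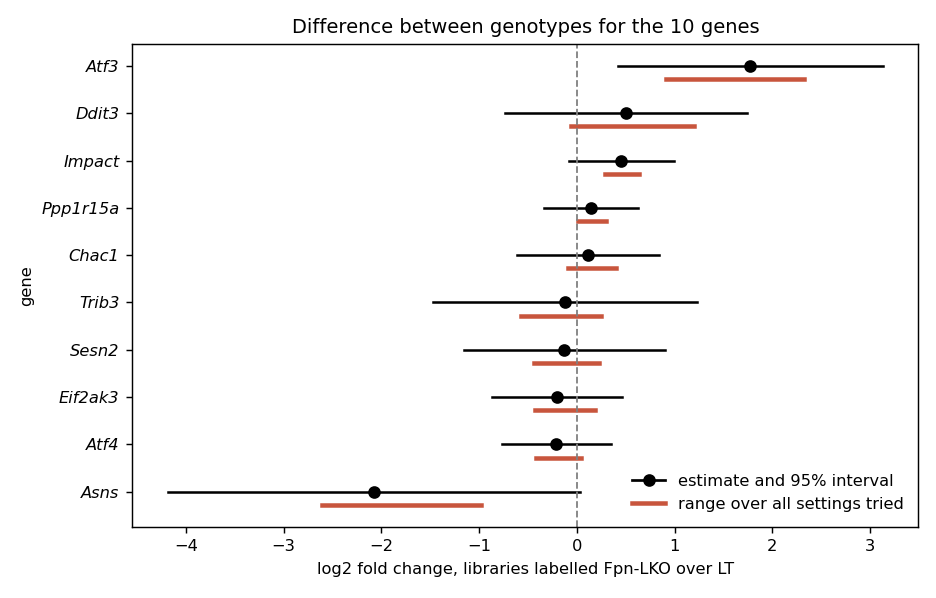
Log2 fold change of each of the 10 genes, libraries labelled Fpn-LKO over LT, with its 95% interval from edgeR's quasi-likelihood fit (black), and the range of the estimate over the main fit and its 14 alternatives (red, log2(TPM + pseudocount) scale where limma was used). The interval of Atf3 lay above 0, that of Asns reached from -4.18 to 0.029, and the other 8 intervals spanned 0.

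In the order of replicates 1 to 3 of each group, the values of the 10 genes were as follows. The labels do not pair mice that have the same replicate number in the 2 groups. Eif2ak3 encodes PERK, the eIF2 kinase of the ER membrane (chromosome 6, 70844484 to 70905241, GRCm38). It stood at 11.6, 15.5 and 25.8 CPM in the LT mice, against 17.9, 13.2 and 14.8 CPM in the Fpn-LKO mice. The highest and the lowest value were both in LT, and all 3 Fpn-LKO libraries lay between them. LT averaged 17.6 ± 7.33 CPM and Fpn-LKO 15.3 ± 2.37 CPM (SD, n = 3 each), for a log2 fold change of -0.20 (SE 0.29, 95% interval -0.86 to 0.47, edgeR quasi-likelihood test, adjusted p = 0.995). Without LT replicate 3 the estimate was 0.18.

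Impact encodes an inhibitor of GCN2, the eIF2 kinase that senses amino acid shortage. It stood at 29.7, 34.9 and 22.1 CPM in the LT mice, against 42.7, 28.6 and 47.3 CPM in the Fpn-LKO mice. Fpn-LKO replicates 1 and 3 lay above every LT library, while Fpn-LKO replicate 2 lay below LT replicates 1 and 2. LT averaged 28.9 ± 6.47 CPM and Fpn-LKO 39.5 ± 9.74 CPM (SD, n = 3 each), for a log2 fold change of 0.45 (SE 0.23, 95% interval -0.085 to 0.99, edgeR quasi-likelihood test, adjusted p = 0.982). The estimate stayed positive in all 14 alternatives, from 0.29 to 0.64. Its level depended on the unit more than that of the other genes. FPKM, scaled to transcript length, was 4.24, 3.65 and 2.32 in LT and 5.44, 2.5 and 6.27 in Fpn-LKO, so LT replicates 1 and 2 changed places. The log2 ratio of counts to FPKM ranged over 0.70 between libraries for Impact and over at most 0.35 for the other 9 genes, and it ranged over less than 0.5 for 96.1% of the 12836 genes that no library covered with fewer than 20 reads.

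Ppp1r15a encodes GADD34, the stress-induced subunit that directs a phosphatase to eIF2 and so ends the response (chromosome 7, 45522917 to 45526268). It stood at 7.11, 6.81 and 5.68 CPM in the LT mice, against 7.57, 5.57 and 8.51 CPM in the Fpn-LKO mice. Fpn-LKO replicate 2 was the lowest of all 6 libraries and Fpn-LKO replicate 3 the highest, and the LT values lay between them. The means, 6.53 ± 0.755 and 7.22 ± 1.5 CPM (SD, n = 3 each), gave a log2 fold change of 0.14 (SE 0.20, 95% interval -0.33 to 0.62, edgeR quasi-likelihood test, adjusted p = 0.995). The annotated span of Ppp1r15a, introns included, shares 717 bases with that of Tulp2 on the opposite strand. Reads in any shared exon cannot be told apart if strand was not used in counting.

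Atf4 encodes the transcription factor at the centre of the pathway (chromosome 15, 80255184 to 80257545). It stood at 58.4, 62.8 and 94.6 CPM in the LT mice, against 59.4, 48.3 and 78.9 CPM in the Fpn-LKO mice. In both groups replicate 3 was the highest, and LT replicate 3 was the highest of all 6 libraries. LT averaged 72.0 ± 19.8 CPM and Fpn-LKO 62.2 ± 15.5 CPM (SD, n = 3 each), for a log2 fold change of -0.21 (SE 0.24, 95% interval -0.77 to 0.35, edgeR quasi-likelihood test, adjusted p = 0.992). Without LT replicate 3 it was 0.038.

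Ddit3 encodes CHOP, a transcription factor that is induced by ATF4 and promotes cell death under lasting stress (chromosome 10, 127290793 to 127296291). It stood at 3.90, 3.16 and 10.2 CPM in the LT mice, against 13.4, 6.04 and 4.94 CPM in the Fpn-LKO mice. In each group 1 library, LT replicate 3 and Fpn-LKO replicate 1, stood well above the other 2 of its group. LT averaged 5.75 ± 3.87 CPM and Fpn-LKO 8.11 ± 4.58 CPM (SD, n = 3 each), for a log2 fold change of 0.50 (SE 0.53, 95% interval -0.74 to 1.74, edgeR quasi-likelihood test, adjusted p = 0.991). The estimate turned on these libraries, since it was 1.20 without LT replicate 3 and -0.065 without Fpn-LKO replicate 1. Without LT replicate 3 the remaining groups did not overlap, as for 22.4% of all genes in the same libraries. The annotated span of Ddit3 shares 68 bases with that of Mars on the opposite strand.

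Atf3 encodes a transcription factor induced by ATF4 and by many other signals of injury (chromosome 1, 191170296 to 191183333). It stood at 0.663, 0.600 and 1.52 CPM in the LT mice, against 4.68, 1.20 and 3.64 CPM in the Fpn-LKO mice, which rested on 33, 26 and 63 reads in LT and 223, 56 and 169 reads in Fpn-LKO. Fpn-LKO replicates 1 and 3 lay above every LT library, and Fpn-LKO replicate 2 lay below LT replicate 3, so the groups overlapped. LT averaged 0.929 ± 0.515 CPM and Fpn-LKO 3.17 ± 1.78 CPM (SD, n = 3 each), for a log2 fold change of 1.78 (SE 0.58, 95% interval 0.42 to 3.13). By edgeR's quasi-likelihood test the unadjusted p was 0.0168 and the adjusted p 0.982, and the exact two-sided permutation test gave p = 0.2. The lowest count, 26 reads, has a 95% exact Poisson interval of 17.0 to 38.1 reads. Over the 14 alternatives the log2 fold change stayed positive, from 0.92 to 2.32, and the adjusted p ranged from 0.158 with DESeq2 to 1.00. Without LT replicate 1, LT replicate 2 or Fpn-LKO replicate 1 the unadjusted p of the same edgeR test was 0.0625, 0.0575 and 0.0615, respectively. In TPM the groups of Atf3 did not overlap, as for 9.15% of all genes tested.

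The genes measured beside Atf3 included immediate-early genes, which respond to injury and handling within minutes. Of 16 listed, 15 were tested, none passed the adjusted threshold, and 12 had a positive log2 fold change, with a median of 0.47. The median was 0.29 without Fpn-LKO replicate 1, 0.62 without Fpn-LKO replicate 2 and 0.24 without Fpn-LKO replicate 3. Their summed level was 50.2 to 60.1 CPM in LT and 60.1 to 92.9 CPM in Fpn-LKO, and the ranges met at 60.1 CPM. Fos stood at 0.864, 0.947 and 0.653 CPM in the LT mice, against 2.39, 0.728 and 0.711 CPM in the Fpn-LKO mice, so that it was high in Fpn-LKO replicate 1 alone. Egr1 stood at 3.88, 2.96 and 0.604 CPM in the LT mice, against 1.07, 3.43 and 15.1 CPM in the Fpn-LKO mice, and was high in Fpn-LKO replicate 3 alone. Btg2 had the smallest p-value of the list, and its groups did not overlap (log2 fold change 0.77, unadjusted p = 0.0224, edgeR quasi-likelihood test, adjusted p = 0.982). The list was written with earlier results of these data known, so its shares are given as a description. Of the 15 genes tested, 3 had all Fpn-LKO libraries above all LT libraries and 0 had them below. Over all genes tested the shares were 5.25% and 5.34%. Fpn-LKO replicates 1 and 3 were also the libraries with the most Atf3, and the Kupffer cell and macrophage markers were highest in Fpn-LKO replicate 3. The part of either in the Atf3 values was not tested.

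Asns encodes asparagine synthetase, a long-known ATF4 target (chromosome 6, 7675165 to 7693209). It stood at 1.77, 14.0 and 34.9 CPM in the LT mice, against 3.63, 2.08 and 6.29 CPM in the Fpn-LKO mice. The LT mice differed 19.8-fold among themselves, with LT replicate 1 the lowest and LT replicate 3 the highest of all 6 libraries, while the Fpn-LKO mice differed 3.03-fold. LT averaged 16.9 ± 16.8 CPM and Fpn-LKO 4.0 ± 2.13 CPM (SD, n = 3 each), for a log2 fold change of -2.08 (SE 0.90, 95% interval -4.18 to 0.029, edgeR quasi-likelihood test, adjusted p = 0.982). The unadjusted p was 0.0525 in the same edgeR fit, and the exact two-sided permutation test gave p = 0.4. The estimate was -0.98 without LT replicate 3 and -2.61 without LT replicate 1. Without LT replicate 1 the groups did not overlap, as for 21.3% of all genes in the same 5 libraries. The variation of Asns between mice was among the larger ones, with a biological coefficient of variation of 0.708 in the fit, at the 95.6th percentile of the genes tested. LT replicate 3 was also the library with the most Spp1 (osteopontin), at 83.1 CPM against 11.1 to 27.7 CPM in the other 5, and what sets this mouse apart was not tested.

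Chac1 encodes an enzyme that breaks down glutathione and is induced by ATF4 (chromosome 2, 119351242 to 119354326). It stood at 2.49, 3.69 and 2.03 CPM in the LT mice, against 2.31, 3.77 and 2.82 CPM in the Fpn-LKO mice. Replicate 2 was the highest in both groups, and the ranges were nearly the same. The log2 fold change was 0.12 (SE 0.31, 95% interval -0.61 to 0.84, edgeR quasi-likelihood test, adjusted p = 0.995), and it was -0.058 without LT replicate 3 and -0.094 without Fpn-LKO replicate 2.

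Trib3 encodes a pseudokinase that is induced by ATF4 and CHOP and dampens both ATF4 activity and Akt signaling (chromosome 2, 152337425 to 152344060). It stood at 3.13, 3.67 and 1.04 CPM in the LT mice, against 3.67, 0.985 and 2.54 CPM in the Fpn-LKO mice. In each group 1 library, LT replicate 3 and Fpn-LKO replicate 2, had a low value near 1 CPM. The log2 fold change was -0.13 (SE 0.58, 95% interval -1.48 to 1.23, edgeR quasi-likelihood test, adjusted p = 0.995). It turned positive without LT replicate 1 (0.026), without LT replicate 2 (0.20) and without Fpn-LKO replicate 2 (0.25).

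Sesn2 encodes sestrin 2, a stress-induced inhibitor of the growth kinase mTORC1 (chromosome 4, 132492804 to 132510456). It stood at 2.81, 3.83 and 1.4 CPM in the LT mice, against 3.42, 2.46 and 1.49 CPM in the Fpn-LKO mice. Replicate 3 was the lowest in both groups. The log2 fold change was -0.13 (SE 0.44, 95% interval -1.16 to 0.90, edgeR quasi-likelihood test, adjusted p = 0.995), and it was 0.22 without LT replicate 2 and 0.13 without Fpn-LKO replicate 3. The annotated span of Sesn2, introns included, shares 6089 bases with that of Gm12981 on the same strand. How much of this lies in exons, and so how far the count of Sesn2 is uncertain, was not examined. The interval of Trib3 held changes of 1 log2 unit in either direction and that of Sesn2 held such a change downward, so the spread between 3 mice a group did not exclude them.

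**Figure D2:**
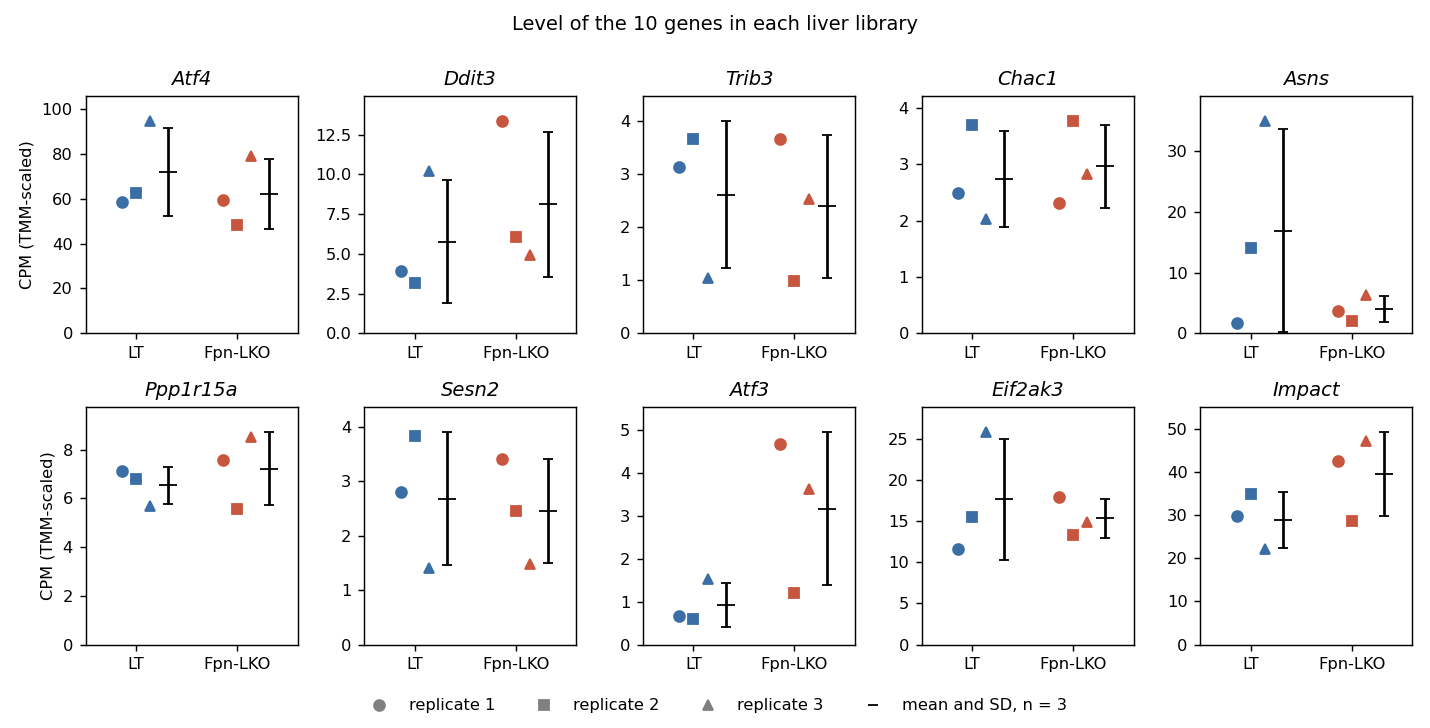
TMM-scaled CPM of the 10 genes in the 3 LT (blue) and 3 Fpn-LKO (red) libraries, with a marker shape for each replicate number and the mean and SD of each group (n = 3) beside the points. Every panel starts at 0 and has its own scale. The groups overlapped in all 10 panels, and LT replicate 3 (blue triangle) was the highest library for Atf4, Asns and Eif2ak3 and the lowest for Chac1, Sesn2 and Impact.

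The 10 genes did not follow a common pattern over the 6 mice. The log2 CPM of each gene was standardized over the 6 libraries, so that 0 is the mean of the gene and 1 is an SD above it. LT replicate 3 had the most genes beyond 1 SD. In it, 3 genes lay more than 1 SD above their mean (Atf4, Asns and Eif2ak3) and 5 lay more than 1 SD below (Trib3, Chac1, Ppp1r15a, Sesn2 and Impact). Fpn-LKO replicate 2 had 3 genes more than 1 SD below their mean, Atf4, Trib3 and Ppp1r15a, and 1 above, Chac1. Fpn-LKO replicate 1 had Ddit3 and Atf3 more than 1 SD above and none below, and Fpn-LKO replicate 3 had Ppp1r15a, Atf3 and Impact above and Sesn2 below. In LT replicate 3, the library with the most Atf4 transcript, Asns was the highest of the 4 genes with the ATF4 core, Atf3 was close to its mean (0.0014 SD), and Trib3 and Chac1 lay 1.22 and 1.24 SD below theirs.

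Likeness between 2 genes was measured as the root mean square difference of their standardized profiles over the 6 libraries, which is 0 for the same pattern. Among the 10 genes it was smallest for Ppp1r15a and Impact (0.436), Asns and Eif2ak3 (0.519) and Atf4 and Asns (0.552). It was largest for Atf4 and Sesn2 (1.70). Ddit3 was nearest to Atf3 (0.699) and was further from Atf4 (1.13) and from Trib3 (1.47). Against the 12553 other genes with a mean of at least 1 CPM, the profiles most like that of Atf4 were those of Xpo5 (0.106), Actr5 (0.137) and Zfp146 (0.144), and those most like that of Ddit3 were Rnf181 (0.0603), Gcc1 (0.154) and Tmem141 (0.157). With 6 libraries and this many genes, close profiles are given as a description.

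**Figure D3:**
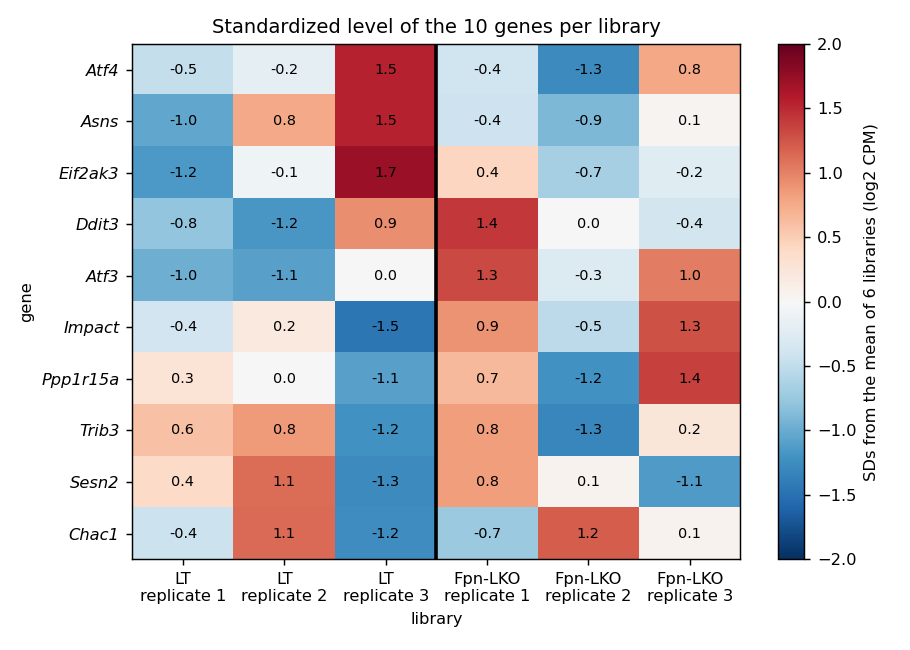
Standardized log2 CPM of the 10 genes (rows) in the 6 libraries (columns), in SDs from each gene's mean over the 6 libraries, with red above and blue below the mean. In LT replicate 3, Atf4, Asns and Eif2ak3 lay over 1 SD above their means while Trib3, Chac1, Ppp1r15a, Sesn2 and Impact lay over 1 SD below theirs.

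Levels of different genes were compared by the deposited FPKM, which is scaled to transcript length. Atf4 had the highest level, with a mean of 33.0 FPKM over the 6 libraries, and its lowest library (24.1 FPKM) lay above the highest library of any other gene of the set (Asns, 14.5 FPKM). It was followed by Asns (4.42 FPKM), Ddit3 (4.39), Impact (4.07), Eif2ak3 (3.21), Ppp1r15a (2.52), Chac1 (1.55), Trib3 (1.05), Atf3 (0.885) and Sesn2 (0.830), as mean FPKM over the same libraries. From Asns downward, the libraries of each gene overlapped with those of the next, so the order of adjacent genes was not separated from the spread between mice. Some genes further apart in the order were separate, as the lowest library of Ddit3 (2.21 FPKM) lay above the highest of Chac1 (2.07 FPKM). Others were not, as the lowest library of Asns (0.710 FPKM) lay below the highest of Sesn2 (1.25 FPKM).

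The other kinases and regulators of eIF2 had small differences between the group means. None of the 17 genes of this list, all tested, passed the adjusted threshold or had an unadjusted p under 0.05 by edgeR's quasi-likelihood test, and their log2 fold changes ran from -0.30 to 0.37 with a median of 0.012. Eif2ak1, the heme-regulated kinase that responds to heme and iron shortage, stood at 20.1, 19.4 and 18.1 CPM in the LT mice, against 19.1, 18.1 and 21.4 CPM in the Fpn-LKO mice. Eif2ak4 (GCN2) stood at 9.24, 7.67 and 8.14 CPM in the LT mice, against 9.94, 8.72 and 9.05 CPM in the Fpn-LKO mice. The values of both kinases overlapped between the groups. Eif2ak2, the kinase that senses viral RNA, had means of 24.8 ± 3.68 and 26.1 ± 3.62 CPM, and Ppp1r15b, the constitutive partner of the eIF2 phosphatase, had means of 85.9 ± 5.80 and 86.6 ± 2.44 CPM (SD, n = 3 each). Dnajc3, an ER co-chaperone that also inhibits eIF2 kinases, had the smallest p-value of the list, with means of 367 ± 59.9 and 475 ± 83.0 CPM (SD, n = 3 each, edgeR quasi-likelihood test, adjusted p = 0.982).

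Genes of amino acid supply, the best known output of ATF4, were also not called in either direction. For the synthesis enzymes, 7 of 9 listed genes were tested and their median log2 fold change was -0.10, which was 0.17 without LT replicate 3. On log2(TPM + 1) the median was 0.21, but over the 4 genes that passed the TPM filter, beside a median of 0.083 over all genes on that scale. Psat1, of serine synthesis, stood at 0.181, 0.369 and 1.72 CPM in the LT mice, against 0.273, 0.171 and 0.603 CPM in the Fpn-LKO mice, and like Asns it was highest in LT replicate 3. Phgdh, the first enzyme of serine synthesis, was left out by the filter on low counts, with 10 reads in all 6 libraries together. Psph was the gene of this list with the smallest p-value and its groups did not overlap (3.92 ± 0.495 and 5.33 ± 0.522 CPM, SD, n = 3 each, edgeR quasi-likelihood test, adjusted p = 0.982). Of all genes tested, 5.25% were likewise higher in Fpn-LKO without overlap. For the transporters, 7 of 9 were tested, with a median of 0.045. Slc7a5, a transporter of large neutral amino acids, had means of 0.574 ± 0.132 and 0.595 ± 0.256 CPM (SD, n = 3 each), and the cystine transporter Slc7a11 was not tested, with 0 reads in 2 libraries and 55 of its 78 reads in Fpn-LKO replicate 1. Slc38a2 had the smallest p-value of this list (113 ± 12.2 and 135 ± 22.9 CPM, SD, n = 3 each, adjusted p = 0.982 by the same edgeR test). The 12 cytosolic aminoacyl-tRNA synthetases, which charge tRNAs, had log2 fold changes from -0.31 to 0.22 with a median of -0.012, and Gars had the smallest p-value among them (43 ± 3.32 and 35.9 ± 4.92 CPM, SD, n = 3 each, edgeR quasi-likelihood test, adjusted p = 0.982).

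**Figure D4:**
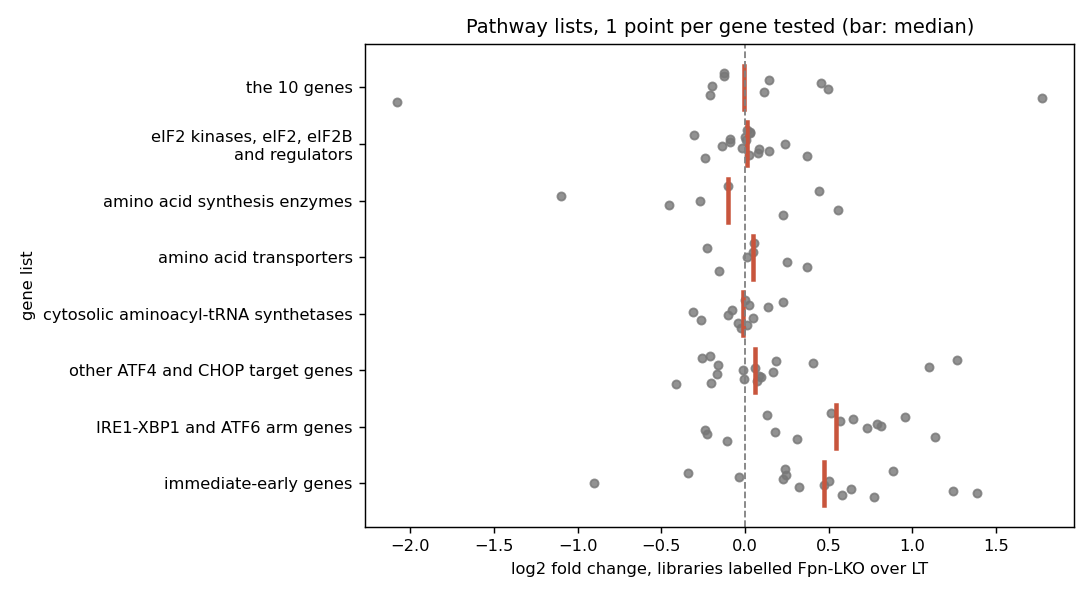
Log2 fold change of each gene tested, libraries labelled Fpn-LKO over LT, in the 10 genes and in 7 hand-written lists of neighbouring pathways (points), with the median of each list (red bar). All were chosen with earlier results of these data known. The medians of the 10 genes and of the lists of eIF2 regulation, amino acid supply and further ATF4 and CHOP targets lay between -0.10 and 0.058, and those of the IRE1-XBP1 and ATF6 list and of the immediate-early list were 0.54 and 0.47.

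Among 19 further target genes of ATF4 and CHOP, 17 were tested, 9 had a positive and 8 a negative log2 fold change, and the median was 0.058. None passed the adjusted threshold by edgeR's quasi-likelihood test. Fgf21, a fasting and stress hormone made by the liver, stood at 35.2, 21.4 and 11.2 CPM in the LT mice, against 14.8, 17.2 and 35.3 CPM in the Fpn-LKO mice, and the groups covered nearly the same range. Gdf15, a secreted stress signal, stood at 2.47, 0.693 and 0.798 CPM in the LT mice, against 2.52, 2.08 and 3.94 CPM in the Fpn-LKO mice. The latter group lay above LT replicates 2 and 3 but overlapped with LT replicate 1 (log2 fold change 1.10, edgeR quasi-likelihood test, adjusted p = 0.982). Nupr1, a stress-induced chromatin protein, stood at 0.623, 0.185 and 0.773 CPM in the LT mice, against 0.650, 1.03 and 2.13 CPM in the Fpn-LKO mice, and its groups overlapped as well (log2 fold change 1.26, adjusted p = 0.982 by the same edgeR test). Atf5, a relative of ATF4 under similar translational control, had means of 28.4 ± 6.22 and 21.3 ± 4.28 CPM, Cebpb, a dimer partner of ATF4, 23.9 ± 4.54 and 23.8 ± 4.66 CPM, and Ddit4, an mTORC1 inhibitor, 0.952 ± 0.352 and 1.01 ± 0.475 CPM (SD, n = 3 each). Herpud1, an ER-associated degradation factor, had means of 573 ± 187 and 512 ± 126 CPM (SD, n = 3 each). Vegfa had the smallest p-value of the list and was lower in all 3 Fpn-LKO libraries than in every LT library, as were 5.34% of all genes tested (73.5 ± 4.61 and 61.5 ± 2.84 CPM, SD, n = 3 each, edgeR quasi-likelihood test, adjusted p = 0.982).

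The other arms of the unfolded protein response are driven by IRE1 with XBP1 and by ATF6, and their targets are mostly ER chaperones. Of the 14 genes listed, all tested, 11 had a positive log2 fold change, and the median was 0.54, but none passed the adjusted threshold by edgeR's quasi-likelihood test. The median was 0.35 without LT replicate 1 and 0.37 without Fpn-LKO replicate 3. Hspa5, the chaperone BiP, stood at 715, 749 and 1154 CPM in the LT mice, against 1735, 1007 and 1861 CPM in the Fpn-LKO mice, so the groups overlapped through LT replicate 3 and Fpn-LKO replicate 2. Hsp90b1, which had the smallest p-value of the list, had means of 633 ± 82.5 and 1048 ± 88.8 CPM (SD, n = 3 each, log2 fold change 0.73, adjusted p = 0.649 by the same edgeR test), and its groups did not overlap. Of the 14 genes, 5 had all Fpn-LKO libraries above all LT libraries and 1 had them below. Over all genes tested the shares were 5.25% and 5.34%. An unadjusted p under 0.05 by the same edgeR test was found for 4 of the 14, where 4.8% of all genes had one. The list was written with earlier results of these data known, so its shares are given as a description. The difference between this list and the 10 genes was not tested.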

How the data were processed

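Liver RNA of 3 LT and 3 Fpn-LKO mice was sequenced as paired reads of 100 bp. Libraries were made from 0.5 µg of total RNA with rRNA removal per the methods, but from 1 µg with a kit for mRNA per the labels. Alignment was to mm10, and the authors deposited unnormalized StringTie 2.1.3b read counts for each RefSeq gene beside FPKM and TPM that the authors scaled to transcript length and depth. The submitters' processing notes also name HISAT2 2.1.0 and Bowtie2 2.3.4.1. Whether counting used strand is not given in the sources used here.

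Counts were tested with edgeR 4.0.16 in R 4.3.3 (quasi-likelihood test, TMM scaling, genes with 0 reads in more than 1 library left out, 17274 genes kept, Benjamini-Hochberg adjustment over all of them). SEs were taken as the fold change over the square root of the F statistic. The methods name exactTest, which was run as an alternative, as were DESeq2 1.42.0, RLE size factors, other filters, the replicate block, limma 3.58.1 on log2 TPM with pseudocounts of 1 and 0.1 (mean TPM of 1 or more), and leaving out each library. The 10 genes and the lists were chosen with earlier results of these data known. Named genes were the 10, Slc40a1, a fixed set of pathway genes, the gene with the smallest p-value in each list and the 3 profiles nearest to Atf4 and to Ddit3. Any other gene was picked with its values in view. Start sites and positions are from RefSeq (GRCm38.p6) and gene overlaps, taken over whole gene spans with introns, from GENCODE M21. BLAST 2.17.0 found no other transcript with at least 90% identity over 100 bases, except Gm43292, which overlaps Eif2ak3. The labels do not say how mice share litters, so whether the mice are independent, as the tests take them to be, is not known. The edgeR p-values rest on a spread between these mice that is partly shared across genes.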

Additional observations from a re-analysis of the deposited data

How the results depend on the processing

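None of the 10 genes passed the adjusted threshold in the main fit or in any of the 14 alternatives. The count of all genes called, 4, was 72 with DESeq2, 63 with exactTest, 0 with the replicate block, 7 with limma at either TPM pseudocount, and 0 to 6 when a library was left out. The 1 gene of the set at an unadjusted p under 0.05 became 2 with exactTest and when every gene with a read was kept, and 0 to 2 when a library was left out (0 without Fpn-LKO replicate 1, 2 without LT replicate 3 or Fpn-LKO replicate 2). The gene itself also changed. By edgeR's quasi-likelihood test it was Asns without LT replicate 1 (unadjusted p = 0.00279, adjusted p = 0.858). Without LT replicate 2 it was Impact (unadjusted p = 0.0475 by the same edgeR test), and Atf3 passed in neither. The count with groups that did not overlap, 0, was 1 in TPM at either pseudocount (Atf3) and 0 to 3 when a library was left out. The 3 without Fpn-LKO replicate 2 were Ppp1r15a, Atf3 and Impact, where 19.5% of all genes did not overlap, and the 2 without LT replicate 3 were Ddit3 and Atf3, against 22.4%. Atf3, Asns, Impact and Ppp1r15a kept their sign in all 14 alternatives, and the other 6 genes changed sign only when a library was left out, over ranges of -0.42 to 0.038 (Atf4), -0.065 to 1.20 (Ddit3), -0.57 to 0.25 (Trib3), -0.094 to 0.40 (Chac1), -0.44 to 0.22 (Sesn2) and -0.43 to 0.18 (Eif2ak3). Deviations of same-numbered mice correlated at 0.221, -0.00092 and 0.0968 across genes for replicates 1 to 3, so not every pair passed 0.1, and the replicate block, which left 1 of the 10 at an unadjusted p under 0.05, rests on shared numbers only. The 10 genes had 570 to 18294 reads each over the 6 libraries, and down to 26 reads in a single library (Atf3), and how much of the spread is counting error was not tested.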

Other observations

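A pair of further genes with uneven levels between mice, chosen after their values were seen, are given as values. Vldlr, the very low density lipoprotein receptor and an ATF4 target, stood at 18.9, 10.5 and 4.76 CPM in the LT mice, against 19.6, 5.76 and 4.27 CPM in the Fpn-LKO mice, so that replicate 1 was the highest in both groups. Marco, a scavenger receptor of macrophages, stood at 0.422, 27.4 and 2.3 CPM in the LT mice, against 2.58, 0.493 and 22.9 CPM in the Fpn-LKO mice, with 1 high library in each group.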
